A study of Mus musculus with 11 samples.

Results

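The 10 genes described here store, move and release iron in macrophages. They are the ferritin chain genes Fth1 and Ftl1, the iron exporter gene Slc40a1 with the ferroxidase gene Cp, the importer genes Tfrc, Slc11a1 and Slc11a2, and the heme-breakdown genes Hmox1, Blvra and Blvrb. They were chosen by symbol, with earlier results of these data known. Each of the 10 had 1 row among the 17475 genes of the deposited table. No filter on low values was applied, and the member with the fewest reads in any library, Cp, had about 165.6 there.

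The 11 poly-A RNA libraries came from macrophages of mammary tumours in 6 female mice of a strain backcrossed to B6. Each mouse carried PyMT, the middle T oncogene of polyoma virus, under which mammary tumours arise. Each was irradiated at 7 weeks of age, reconstituted with 3 M (mega) wild-type B6 marrow cells, and put on a low protein diet 2 weeks later for 6 weeks. MYC mice (numbers 2, 4 and 6) carried in addition S100a8-cre and a Rosa26-LSL-MYC allele, and control mice (numbers 1, 3 and 5) carried PyMT without them. S100a8 is a gene of myeloid cells, while the donor marrow was wild type, so by the labels the MYC allele was in host cells. Whether the sorted macrophages came from host or donor is not given in the sources used here. Tumour-associated macrophages (TAMs) were sorted as positive for F4/80 and Vcam, and mammary tissue macrophages (MTMs) as positive for F4/80 and FOLR2 and negative for Vcam. Both gates also kept CD45 positive cells and removed cells with SiglecF, Ly6G, B220 or Ly6C. There were 3 libraries of MYC TAMs, 2 of MYC MTMs, 3 of control TAMs and 3 of control MTMs, each from a separate mouse within its group. MYC mouse 6 gave TAMs only.

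Values are the deposited log2 levels, given in the order of the mouse numbers within a group. They behave as scaled for depth and gene length, so levels of different genes are set side by side. A log2 difference of 1 is a doubling. An estimated 32.8 to 43.4 M reads per library fell in genes. Of 14 macrophage identity genes 13 were measured, and none was near 0 in any group. Within them Emr1, the gene of the sorting marker F4/80, was at 7.50, 7.57 and 8.37 in MYC TAMs, against 9.93, 9.40 and 9.56 in control TAMs, and the receptor gene Csf1r was at 7.59 to 8.09 in MYC TAMs, against 10.25 to 10.74 in control TAMs. Cd68 was the other way, at 10.18 to 10.41 in MYC TAMs and 8.17 to 8.51 in control TAMs. The summed linear level of the 13 identity genes was 18799 to 30140 in MYC TAMs and 12875 to 16926 in control TAMs. Their mean log2 level overlapped, at 7.88 to 8.21 in MYC TAMs and 8.03 to 8.54 in control TAMs. The summed linear level of 7 genes of the markers sorted for or against was 221 to 397 in MYC TAMs and 943 to 1434 in control TAMs. Emr1 and Vcam1 are among these 7, so the sum is not separate from their own levels. It mixes markers sorted for with markers sorted against. Folr2 separated MTMs from TAMs in both genotypes, but Vcam1 went against the gate in MYC mice. It was at 0.96, 1.61 and 2.82 in MYC TAMs, 2.32 and 2.31 in MYC MTMs, 8.60, 7.64 and 8.57 in control TAMs, and 5.31, 6.86 and 5.25 in control MTMs. The row of Myc was at 1.78 to 2.16 in MYC TAMs and at 2.66 to 3.18 in control TAMs. Whether that row takes up reads of the transgene is not given in the sources used here. The MYC TAM library of mouse 4 had 581 genes at the floor of the table, against 2072 to 3522 in the other libraries. Of 9 marker lists of other cells and 1 of dividing cells, 7 had summed levels that lay apart between TAMs of the genotypes. The summed linear level of 19 mammary epithelial markers was 41.2 to 443 in MYC TAMs and 785 to 1644 in control TAMs. That of 11 T and NK cell markers was 3.04 to 7.34 in MYC TAMs and 62.6 to 140 in control TAMs, that of 8 dendritic cell markers was 1.13 to 2.75 in MYC TAMs and 15.02 to 17.33 in control TAMs, and that of 7 B and plasma cell markers was 2.04 to 8.16 in MYC TAMs and 9.90 to 24.8 in control TAMs. Summed levels were higher in MYC TAMs for 7 endothelial markers, at 14.2 to 17.5 against 4.09 to 6.18 in control TAMs, and for 7 monocyte markers, at 273 to 621 against 7.61 to 10.4 in control TAMs. The monocyte sum was carried by Chi3l3, named after its value was seen, which was at 9.26, 8.14 and 8.08 in MYC TAMs and at 0.46 to 1.16 in control TAMs. The mean log2 level of that list was 1.64 to 2.09 in MYC TAMs, 3.14 and 2.63 in MYC MTMs and 0.90 to 1.04 in control TAMs. The summed level of 15 genes of dividing cells was 40.2 to 47.7 in MYC TAMs and 166 to 289 in control TAMs. The fibroblast, neutrophil and erythroid lists overlapped between MYC and control TAMs. Near 0 in all MYC TAM libraries were Prlr among the epithelial markers, Lum among those of fibroblasts and Slc4a1 among the erythroid ones. So were Cd3e, Cd8a and Gzma among those of T and NK cells, and Ccr7 and Xcr1 among those of dendritic cells. Ms4a1 among those of B cells, Tek among those of endothelium and Ccr2 among those of monocytes were near 0 there too. Xcr1, Tek and Slc4a1 were also near 0 in all control TAM libraries. The part of the marker lists in the results below was not tested beyond the epithelial covariate. Fewer cells of a type and less RNA per cell cannot be told apart in bulk libraries.

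Macrophages take in iron bound to transferrin and, by engulfing red cells, as heme. Heme oxygenase opens the heme ring and frees its iron, biliverdin reductases turn the product biliverdin into bilirubin, ferritin stores iron in a shell of heavy and light chains, and ferroportin is the exporter. Iron regulatory proteins bind an RNA hairpin, the iron responsive element, when iron is scarce. Bound before the coding sequence, as in ferritin and ferroportin messages, they block translation. Bound after it, as in the transferrin receptor message, they protect the message from decay. The level of a message is therefore only a part of how these genes are set, and proteins and iron were not measured here.

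The hairpin was searched in all coding transcripts of the 10 genes, since it divides the members by how iron acts on their messages. A match had a bulged C, a stem of 5 bases on each side with at least 4 pairs (G with U counted as a pair), and a loop CAGTGN. The bulged C and the loop are in capitals below, and the sequences run 5′ to 3′ on the sense strand of the GENCODE transcripts of GRCm38. The first 3 lie in exon 1 before the coding sequence, and the last 2 lie after the coding sequence.
Fth1 (chr19:9982733-9982759, plus strand): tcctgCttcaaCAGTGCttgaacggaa
Ftl1 (chr7:45459780-45459806, minus strand): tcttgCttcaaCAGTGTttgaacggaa
Slc40a1 (chr1:45925466-45925492, minus strand): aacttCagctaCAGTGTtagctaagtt
Tfrc (chr16:32631220-32631246, plus strand, exon 19): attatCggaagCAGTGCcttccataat
Slc11a2 (chr15:100395154-100395180, minus strand, exon 16): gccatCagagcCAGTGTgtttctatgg
Tfrc held 4 such matches after its coding sequence, of which the first is printed. The match of Slc11a2 has 4 stem pairs and lies in at least 1 of its isoforms. How many of its isoforms hold it was not counted, and the deposited gene level does not separate isoforms. Slc11a1 had 1 match, inside its coding sequence, and Hmox1, Blvra, Blvrb and Cp had none. Over 21901 coding genes, each taken by its longest coding transcript, 133 (0.607%) held a match before the coding sequence and 813 (3.712%) after it. The members were searched in all their coding transcripts, so these shares are not a like comparison for them. A match describes the letters only.

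MYC TAMs differed from control TAMs in 4 of the 10 genes. Fth1 and the importer gene Slc11a2 were higher, and the exporter gene Slc40a1 and Cp were lower. Among all genes, 15.9% passed the same threshold in that comparison, 3.89% higher and 12.0% lower in MYC TAMs (limma, adjusted p under 0.05 over all genes). Between MYC TAMs and MYC MTMs 2 members passed, Fth1 higher and Hmox1 lower in TAMs, where 4.49% of all genes passed, 0.664% higher and 3.82% lower. No member passed between control TAMs and control MTMs, where 2.37% of all genes passed, 0.744% higher and 1.63% lower, and 2 members were under 0.05 before adjustment. No member passed between MYC MTMs and control MTMs, where 0.618% of all genes passed, 0.338% higher and 0.280% lower, and 2 members were under 0.05 before adjustment. Whether the difference between TAMs and MTMs depended on the genotype was tested as an interaction, which 1.24% of all genes and no member passed, with 3 members under 0.05 before adjustment. The comparisons share libraries, so they are not independent of each other. Since the members were chosen with earlier results of these data known, their counts beside the shares of all genes are a description. The median difference of the 10 members was 0.38 between MYC and control TAMs, 0.39 between MYC and control MTMs, -0.42 between MYC TAMs and MYC MTMs and -0.07 between control TAMs and control MTMs, beside medians of all genes from -0.02 to 0.00.

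**Figure D1:**
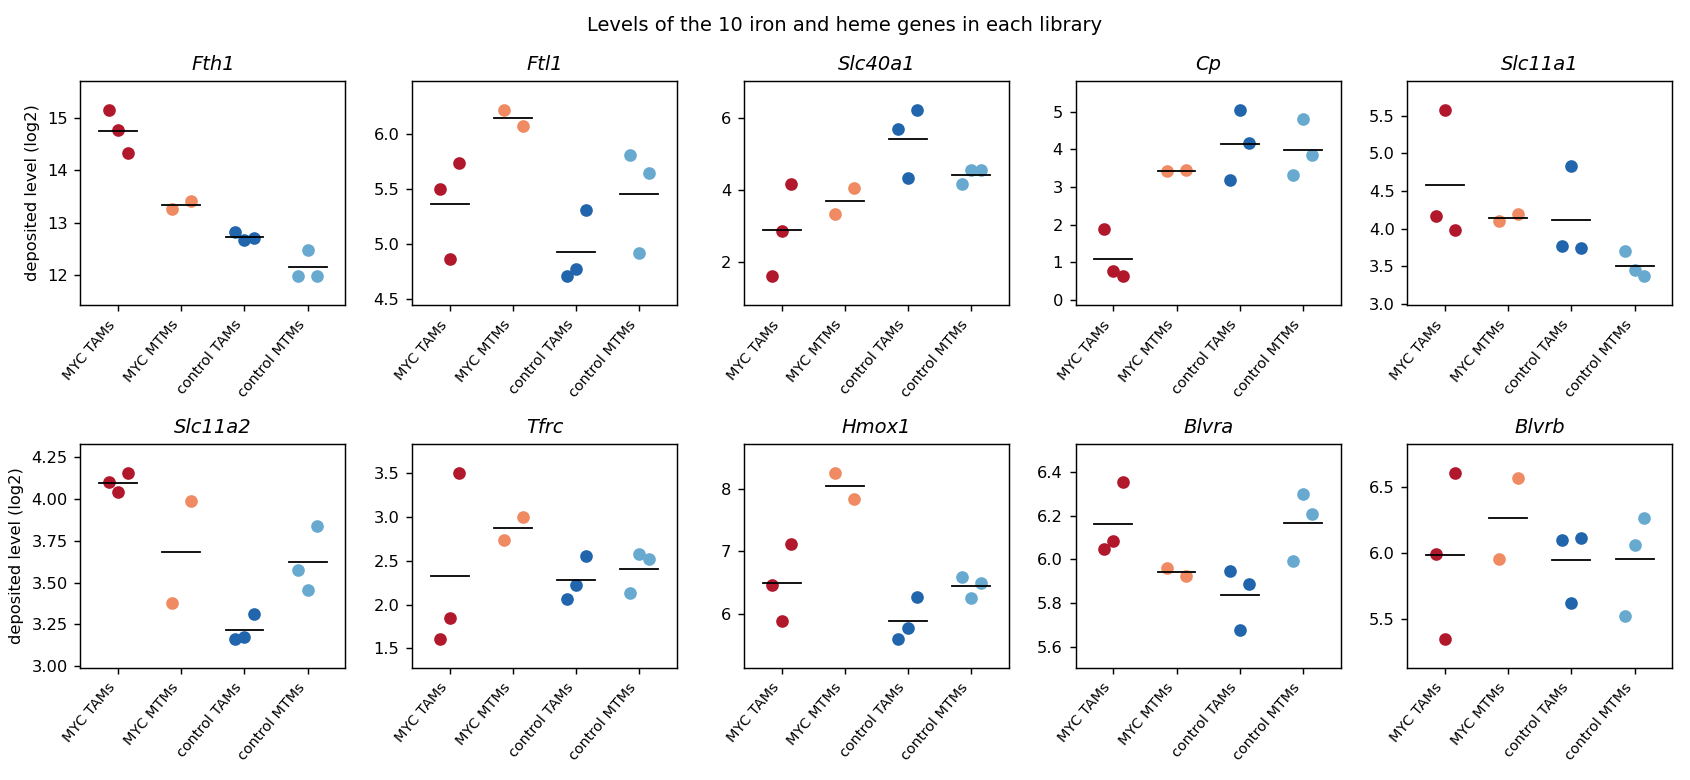
Deposited log2 level of each of the 10 genes in every library, by group, with a line at the group mean; the vertical axes differ between genes and do not start at 0. Fth1 falls in 4 separate bands, from 14.33 to 15.15 in MYC TAMs down to 11.98 to 12.49 in control MTMs, and the lowest Cp values are the 3 MYC TAM libraries.

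Fth1, on chromosome 19 (9980598 to 9985098, plus strand, GRCm38 as for all positions here), encodes the ferritin heavy chain, which oxidises iron as it enters the shell. Its level was 15.15, 14.76 and 14.33 in MYC TAMs, 13.26 and 13.43 in MYC MTMs, 12.82, 12.68 and 12.71 in control TAMs, and 11.98, 12.49 and 11.99 in control MTMs. The 4 groups did not overlap, and MYC TAMs were the highest and control MTMs the lowest. Fth1 was the first or second of all 17475 genes by level in each MYC library, rank 4 or 5 in control TAMs and rank 5 to 9 in control MTMs. On the linear scale per gene length it made up 7.78%, 6.30% and 5.16% of the summed level in MYC TAMs, 2.42% and 2.73% in MYC MTMs, 1.68%, 1.57% and 1.62% in control TAMs, and 0.980%, 1.32% and 0.998% in control MTMs.

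**Figure D2:**
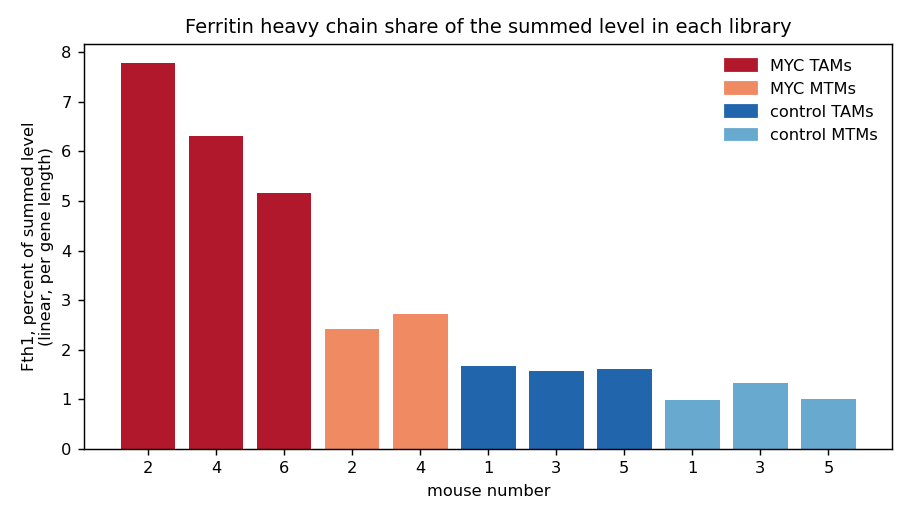
Fth1 as a percent of the summed linear level of all genes, which is scaled for gene length, with 1 bar per library labelled by mouse number and coloured by group. The MYC TAM bars reach 5.16% to 7.78%, and no other library is above 2.73%.

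Fth1 rose in MYC TAMs over control TAMs by 2.02 ± 0.30 (log2 difference ± SE), which is 4.05-fold (limma adjusted p = 0.00193, n = 3 and 3). This call held without each library in turn (limma adjusted p up to 0.0284). Over all 21 alternatives the difference ranged from 1.43 to 2.61, and the limma adjusted p reached 0.0497. Fth1 also rose in MYC TAMs over MYC MTMs, by 1.41 ± 0.33 or 2.66-fold (limma adjusted p = 0.0465, n = 3 and 2). That call stood close to the threshold. Under a fixed block for the mouse its adjusted p was 0.0742 (difference 1.62), and it was lost under 13 of 22 alternatives, whose adjusted p ranged from 0.00984 to 0.518. Leaving out 9 of the 11 libraries, 1 at a time, ended it: the MYC TAMs of mouse 2 (0.0914) or 4 (0.193), the MYC MTMs of mouse 2 (0.321) or 4 (0.228), the control TAMs of mouse 1 (0.0800), 3 (0.0774) or 5 (0.0955), and the control MTMs of mouse 1 (0.0731) or 5 (0.0896). Within the mice that gave both cell types, TAMs were above MTMs by 1.90 and 1.34 in the MYC mice 2 and 4, and by 0.84, 0.19 and 0.72 in the control mice 1, 3 and 5. The difference in controls was 0.58 ± 0.30 (limma adjusted p = 0.533), that between MYC and control MTMs was 1.19 ± 0.33 (0.202), and the interaction was 0.83 ± 0.45 (0.590).

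Ftl1, on chromosome 7 (45457944 to 45459884, minus strand), encodes the ferritin light chain, which helps iron settle into the core of the shell. Its level was far below that of Fth1 in every library, at 5.50, 4.86 and 5.74 in MYC TAMs, 6.22 and 6.07 in MYC MTMs, 4.71, 4.77 and 5.31 in control TAMs, and 5.81, 4.92 and 5.64 in control MTMs. The gap to Fth1 was 8.60 to 9.90 in MYC TAMs, 7.04 and 7.35 in MYC MTMs, 7.40 to 8.11 in control TAMs and 6.17 to 7.56 in control MTMs. The level of Ftl1 is uncertain. Of the 919 stretches of 50 bases in its transcript, 78.89% also occur in the related sequences Ftl1-ps1, Gm15590 or Ftl2-ps, and how reads that map to several places were counted is not given in the sources used here. For Fth1 the share was 6.59%, with Gm6977. MYC MTMs had the highest Ftl1 values and their 2 libraries lay above all others, but no comparison passed. The differences were 0.44 ± 0.29 for MYC over control TAMs (limma adjusted p = 0.384), 0.69 ± 0.33 for MYC over control MTMs (0.541) and -0.78 ± 0.33 for MYC TAMs over MYC MTMs (0.263).

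Slc40a1, on chromosome 1 (45908068 to 45926523, minus strand), encodes ferroportin. Its level was 1.61, 2.88 and 4.17 in MYC TAMs, 3.34 and 4.06 in MYC MTMs, 5.71, 4.33 and 6.23 in control TAMs, and 4.18, 4.58 and 4.56 in control MTMs. Each MYC library was below each control library, although MYC TAM mouse 6 (4.17) and control MTM mouse 1 (4.18) nearly met. The spread within TAMs was wide, with an SD of 1.28 in MYC TAMs and 0.98 in control TAMs, against 0.23 in control MTMs. Slc40a1 fell in MYC TAMs to 2.89 on average, against 5.42 in control TAMs. The difference was -2.54 ± 0.63, a level 5.80-fold lower (limma adjusted p = 0.0236). The call was lost in 5 of 21 alternatives (adjusted p from 0.00283 to 0.102). These were the 2 groups alone (0.102) and the fits that left out MYC TAM mouse 2 (0.0659), MYC TAM mouse 4 (0.0817), control TAM mouse 1 (0.0690) or control TAM mouse 5 (0.0878). With mouse 2 as the only MYC TAM library, mice 4 and 6 left out, the difference was -3.81 (adjusted p = 0.0205). There the spread came from the other groups, and the lone library was assumed to vary as they do. With a covariate for the epithelial level of the libraries it was -4.66 (0.00283). Between MYC and control MTMs the difference was -0.75 ± 0.71 (limma adjusted p = 0.888). TAMs were below MTMs by 1.72 and 1.18 in the MYC mice 2 and 4, and above them in the control mice 1 and 5 but not 3, where the differences were 1.53, 1.67 and -0.25 in mice 1, 5 and 3. The interaction was -1.79 ± 0.95 and did not pass (adjusted p = 0.576), although it did with the epithelial covariate.

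Cp, on chromosome 3 (19957054 to 20009145, plus strand), encodes ceruloplasmin, a copper enzyme that oxidises iron leaving cells so that transferrin can bind it. Its level was 1.88, 0.78 and 0.64 in MYC TAMs, 3.42 and 3.45 in MYC MTMs, 3.19, 5.04 and 4.16 in control TAMs, and 3.32, 4.81 and 3.84 in control MTMs. All MYC TAM libraries lay below all other libraries, while MYC MTMs lay within the range of the controls. Cp fell in MYC TAMs relative to control TAMs by 3.03 ± 0.53 on the log2 scale, a level 8.18-fold lower (limma adjusted p = 0.00461), and this call held without each library in turn. Against MYC MTMs the difference was -2.34 ± 0.59 (limma adjusted p = 0.0605). There 6 of 22 alternatives passed (adjusted p from 0.0279 to 0.380 over the 22). Among the 6, under a fixed block for the mouse the difference was -2.11 (adjusted p = 0.0359), and as a random block -2.31 (0.0378). The adjusted p was also under the threshold without control TAM mouse 1 (0.0447) or 3 (0.0490).

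Cp moved with the epithelial level of the libraries. The mean level of the epithelial markers was 3.20, 2.20 and 1.20 in MYC TAMs, 3.29 and 3.28 in MYC MTMs, 3.78, 4.49 and 3.63 in control TAMs, and 3.49, 3.99 and 3.49 in control MTMs. These means include Ltf, which was left out of the covariate. The lowest Cp values and the lowest epithelial levels were both in MYC TAM mice 6 and 4, and the highest were both in mouse 3. With the epithelial level as a covariate the difference between MYC and control TAMs was -1.51 (limma adjusted p = 0.169), and with mouse 2 as the only MYC TAM library it was -2.25 (0.120). These were the only 2 of 21 alternatives that lost the call (adjusted p from 0.00162 to 0.169). Within MYC TAM mouse 2, whose epithelial level of 3.20 was close to the 3.28 and 3.29 of MYC MTMs, Cp was at 1.88, against 3.42 and 3.45 in those MTMs.

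**Figure D3:**
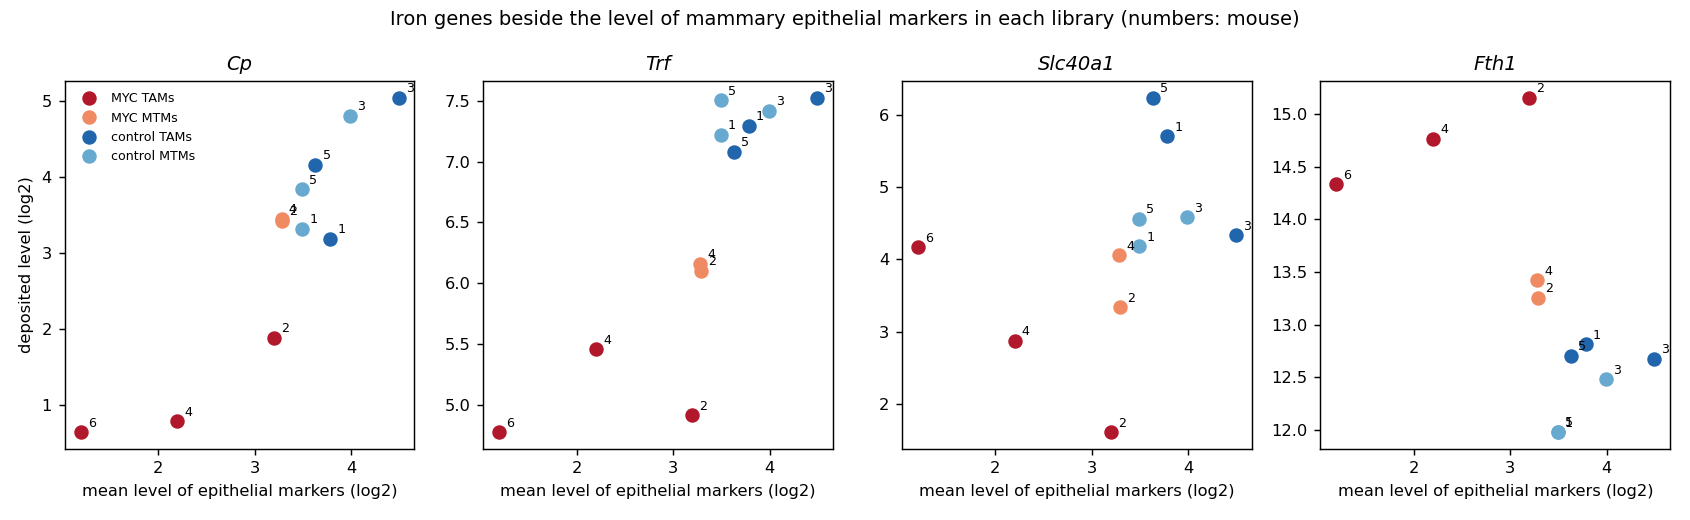
Deposited log2 level of Cp, Trf, Slc40a1 and Fth1 in each library against the mean log2 level of the measured mammary epithelial markers, coloured by group and labelled by mouse number. The marker mean includes Ltf, unlike the covariate. Cp is lowest where the epithelial level is lowest. The MYC TAM library of mouse 2, at an epithelial level of 3.20, has Cp at 1.88, Trf at 4.92, Slc40a1 at 1.61 and Fth1 at 15.15.

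Tfrc, on chromosome 16 (32608920 to 32632794, plus strand), encodes the transferrin receptor, which takes up iron-loaded transferrin. Its level was low, at 1.61, 1.85 and 3.51 in MYC TAMs, 2.74 and 3.00 in MYC MTMs, 2.06, 2.22 and 2.55 in control TAMs, and 2.13, 2.58 and 2.52 in control MTMs. MYC TAM mouse 6 held the highest value and MYC TAM mice 2 and 4 the lowest, so that the range of MYC TAMs spanned that of every other group. The limma adjusted p of Tfrc was 0.602 to 1.00 over the 5 comparisons.

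Slc11a1 and Slc11a2 encode metal transporters of the NRAMP family. Slc11a1, on chromosome 1 (74375195 to 74386062, plus strand), moves metal ions out of the phagosome of macrophages. It was at 4.17, 5.58 and 3.99 in MYC TAMs, 4.10 and 4.19 in MYC MTMs, 3.77, 4.83 and 3.75 in control TAMs, and 3.70, 3.46 and 3.37 in control MTMs. The highest value in each TAM group, in MYC mouse 4 and control mouse 3, stood apart from the other two, and the MYC MTM libraries lay inside the range of both TAM groups. The limma adjusted p of Slc11a1 was 0.487 to 0.923 over the 5 comparisons.

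Slc11a2, on chromosome 15 (100387898 to 100425072, minus strand), brings iron across the membrane of the gut cell and of the endosome after transferrin uptake. It was at 4.10, 4.04 and 4.15 in MYC TAMs, 3.38 and 3.99 in MYC MTMs, 3.17, 3.18 and 3.31 in control TAMs, and 3.58, 3.46 and 3.84 in control MTMs. The spread was small within TAMs, and the 3 MYC TAM libraries were above all others while the 3 control TAM libraries were below all others. Slc11a2 rose in MYC TAMs over control TAMs by 0.88 ± 0.18, or 1.84-fold (limma adjusted p = 0.00927), and the call held without each library in turn. It was lost in 2 of 21 alternatives (adjusted p from 0.00367 to 0.159), with mouse 2 as the only MYC TAM library (difference 0.88, 0.0760) and with the epithelial covariate (0.75, 0.159). TAMs were above MTMs by 0.72 and 0.05 in the MYC mice 2 and 4, and below them by 0.41, 0.28 and 0.52 in the control mice 1, 3 and 5. The interaction was 0.82 ± 0.27 (limma adjusted p = 0.242).

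Hmox1, on chromosome 8 (75093621 to 75100589, plus strand), encodes heme oxygenase 1, the inducible enzyme that opens the heme ring. Its level was 6.47, 5.89 and 7.12 in MYC TAMs, 8.25 and 7.84 in MYC MTMs, 5.60, 5.78 and 6.27 in control TAMs, and 6.58, 6.26 and 6.49 in control MTMs. The MYC MTM libraries lay above all others, and the other groups overlapped. Hmox1 fell to 6.49 on average in MYC TAMs, against 8.05 in MYC MTMs, a difference of -1.55 ± 0.33 or a level 2.93-fold lower (limma adjusted p = 0.0323). That direction is the opposite of the change of Fth1 in the same comparison. The call was lost under 9 of 22 alternatives (adjusted p from 0.00855 to 0.269). It was lost without MYC MTM mouse 2 (0.269) or 4 (0.122), MYC TAM mouse 2 (0.0785) or 4 (0.0687), control TAM mouse 3 (0.0532) or control MTM mouse 5 (0.0584).

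Hmox1 was the member with the largest difference between MYC and control MTMs, 1.60 ± 0.33 or 3.03-fold, which did not pass (limma adjusted p = 0.0848). It passed without MYC TAM mouse 6 (0.0320) and in a table limited to mean levels of at least 1 (0.0408). Over the alternatives its adjusted p ranged from 0.0320 to 0.608. Between MYC and control TAMs the difference was 0.61 ± 0.30 (0.226), and between control TAMs and control MTMs it was -0.56 ± 0.30 (0.563). TAMs were below MTMs in each of the 5 mice with both cell types, by 1.78 and 1.95 in MYC mice 2 and 4 and by 0.98, 0.49 and 0.22 in control mice 1, 3 and 5. The interaction was -0.99 ± 0.45 (limma adjusted p = 0.474). The erythroid list, of which 7 of 16 genes were measured, had summed linear levels of 9.29 to 49.6 in MYC TAMs, 12.5 and 19.9 in MYC MTMs, 15.9 to 109 in control TAMs and 4.93 to 39.8 in control MTMs, with the band 3 gene Slc4a1 near 0 in every group.

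The reductases that follow heme oxygenase varied less. Blvra, on chromosome 2 (127070665 to 127097084, plus strand), encodes biliverdin reductase A. It was at 6.05, 6.08 and 6.35 in MYC TAMs, 5.96 and 5.92 in MYC MTMs, 5.95, 5.68 and 5.89 in control TAMs, and 6.00, 6.30 and 6.21 in control MTMs. MYC TAMs lay above control TAMs without overlap by 0.32 ± 0.14, which did not pass (limma adjusted p = 0.165). Blvrb, on chromosome 7 (27447978 to 27466144, plus strand), encodes biliverdin reductase B, which also reduces flavins. It was at 5.99, 5.35 and 6.61 in MYC TAMs, 5.96 and 6.57 in MYC MTMs, 6.10, 5.62 and 6.11 in control TAMs, and 5.52, 6.06 and 6.27 in control MTMs. All 4 groups overlapped, and the limma adjusted p of Blvrb was 0.734 to 1.00 over the 5 comparisons.

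**Figure D4:**
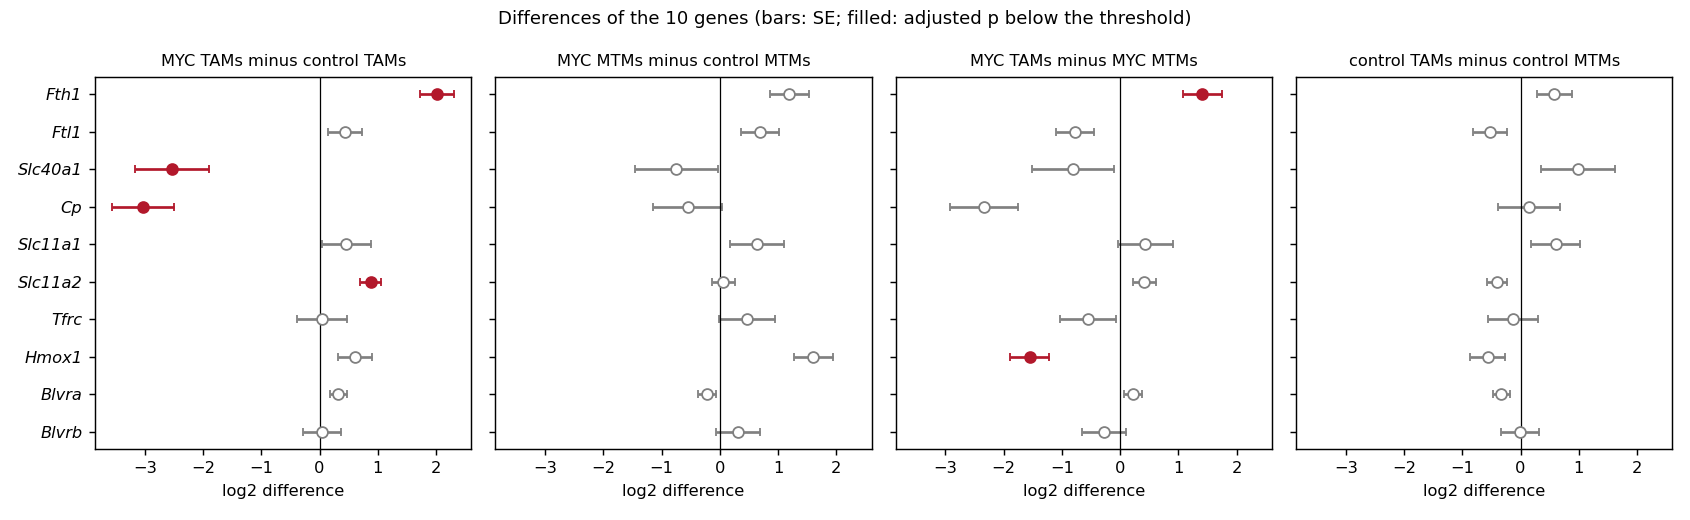
Log2 difference of each of the 10 genes in the 4 comparisons between groups (points, with bars of 1 SE from limma); filled red points passed the adjusted threshold and open grey points did not. Fth1, Slc40a1, Cp and Slc11a2 are filled between MYC and control TAMs, Fth1 and Hmox1 between MYC TAMs and MYC MTMs, and no gene in the other comparisons.

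Other genes of iron and heme handling were taken as 5 lists, of which 72 of 77 genes were measured. These lists too were chosen with earlier results of these data known. Between MYC and control TAMs 21 of the 72 passed, 4 higher and 17 lower, beside the 3.89% and 12.0% of all genes given above. Between MYC TAMs and MYC MTMs 6 passed, all lower in TAMs, where 3.82% of all genes were lower and 0.664% higher. Between control TAMs and control MTMs 2 passed, both lower in TAMs, where 1.63% of all genes were lower and 0.744% higher. Between MYC and control MTMs 1 passed, lower in MYC MTMs, where 0.280% of all genes were lower and 0.338% higher. None passed in the interaction, which 1.24% of all genes passed (smallest limma adjusted p in any list 0.179). The count of 21 was 12 without MYC TAM mouse 2, 13 without MYC TAM mouse 4, 7 without control TAM mouse 3 and 10 without control TAM mouse 5. It was also 10 with mouse 2 as the only MYC TAM library and 7 with the epithelial covariate. The count of 6 was 1 without either MYC MTM library and 3 under a fixed block for the mouse. The count of 2 was 1 under that block, 1 when the control TAMs of mouse 3 or 5 or the control MTMs of mouse 1 or 5 were left out, and 4 when the MYC TAMs of mouse 6 were. Of the 21, Trf, Ltf, Slc22a17, Aco1 and Nedd4 passed without each library in turn.

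In the list of the transferrin cycle and ferric reductases, 1 of 14 measured genes was higher and 6 were lower in MYC TAMs than in control TAMs (median of the list -0.47). The shares of all genes were 3.89% higher and 12.0% lower. Trf, the gene of transferrin itself, was at 4.92, 5.46 and 4.78 in MYC TAMs, 6.10 and 6.16 in MYC MTMs, 7.30, 7.52 and 7.08 in control TAMs, and 7.22, 7.42 and 7.50 in control MTMs. The 3 bands did not overlap, with both control groups in the highest. Trf fell in MYC TAMs relative to control TAMs by 2.25 ± 0.19, a level 4.75-fold lower (limma adjusted p = 0.000103), and with the epithelial covariate the difference was -2.02 (0.00794). It also fell in MYC MTMs relative to control MTMs by 1.25 ± 0.22 (0.0445) and in MYC TAMs relative to MYC MTMs by 1.08 ± 0.22 (0.0237). Of these 2 calls, that of the MTMs was lost in 9 of the 11 fits with 1 library left out (adjusted p up to 0.332, without MYC MTM mouse 2). The other was lost without MYC TAM mouse 2 (0.0650), MYC MTM mouse 2 (0.166) and MYC MTM mouse 4 (0.169). Under a fixed block for the mouse the difference between MYC TAMs and MYC MTMs was -0.95 (adjusted p = 0.0805).

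In the same list Ltf, which encodes lactoferrin, fell by 4.47 ± 0.80 in MYC TAMs relative to control TAMs, 22.2-fold (limma adjusted p = 0.00532). Lcn2, which encodes the siderophore-binding lipocalin 2, fell by 4.19 ± 0.93 (0.0140). Slc22a17, which encodes a receptor for lipocalin 2, fell by 1.99 ± 0.33 (0.00343). It was at 0.26, 0.19 and 0.02 in MYC TAMs, near the floor, and its difference ranged from -4.08 to -0.75 over 21 alternatives. Ltf is itself among the epithelial markers, so the epithelial levels given above include it, while the covariate left it out. In MYC TAMs Ltf was at 4.43, 3.23 and 1.11 in mice 2, 4 and 6. With the epithelial covariate the differences were -2.62 for Ltf (limma adjusted p = 0.195), -0.96 for Lcn2 (0.494) and -1.46 for Slc22a17 (0.121). The gene that rose was Mcoln1, of the lysosomal channel TRPML1 that releases iron, by 1.39 ± 0.32 (0.0155). The call of Lcn2 was lost without MYC TAM mouse 4 (0.0612) or control TAM mouse 3 (0.0595), and that of Mcoln1 without control TAM mouse 3 (0.0650) or 5 (0.0529), and with the epithelial covariate the difference of Mcoln1 was 1.09 (0.258). The other two that fell were Steap4, a reductase gene, by 1.43 ± 0.36 (0.0242) and Hfe, which encodes a partner of the transferrin receptor, by 0.46 ± 0.14 (0.0461). Steap4 was at 0.02, 0.21 and 0.16 in MYC TAMs, near the floor, and its call was lost in 8 of 20 alternatives (adjusted p from 0.00365 to 0.398). The Hfe call was lost in 16 of 21 alternatives (adjusted p from 0.0235 to 0.335), of which 10 left out 1 library, and its difference was -0.26 with each library centred on its median. Lcn2, Mcoln1, Steap4 and Hfe are named in addition to the 4 genes per list with the smallest adjusted p, after their values were seen. Slc39a14, an importer of free iron, fell in MYC TAMs relative to MYC MTMs by 1.04 ± 0.17 (0.0104), to 0.29, 0.35 and 0.56, against 1.52 and 1.36 in MYC MTMs. Under a fixed block for the mouse that difference was -1.12 (adjusted p = 0.0641), and the call was also lost without MYC MTM mouse 2 (0.114) or 4 (0.0654).

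Of the 11 measured genes of iron sensing, ferritin turnover and export, 2 were lower in MYC TAMs than in control TAMs and none was higher. The shares of all genes were 12.0% lower and 3.89% higher. Aco1, which encodes iron regulatory protein 1, was at 4.42, 4.54 and 4.92 in MYC TAMs, 5.28 and 5.43 in MYC MTMs, 5.65, 5.76 and 5.79 in control TAMs, and 5.93, 5.74 and 6.02 in control MTMs. MYC TAMs were the lowest and did not overlap another group. Aco1 fell by 1.11 ± 0.15 relative to control TAMs, a level 2.16-fold lower (limma adjusted p = 0.00128), and with the epithelial covariate the difference was -1.46 (0.00489). Relative to MYC MTMs it fell by 0.73 ± 0.17 (0.0437), a call that 9 of the 11 fits with 1 library left out did not keep (adjusted p up to 0.291). Nedd4, which encodes a ubiquitin ligase, fell by 2.75 ± 0.58 relative to control TAMs (0.0114), and with the epithelial covariate the difference was -0.81 (0.408). Its partner Ndfip1 fell in control TAMs relative to control MTMs by 0.80 ± 0.14 (0.0140). That call was lost under the fixed block (adjusted p = 0.0572), and without the control libraries of TAM mouse 3 (0.0663), TAM mouse 5 (0.0639), MTM mouse 1 (0.0675) and MTM mouse 5 (0.0667).

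Among the 14 genes of heme uptake and transport, 2 were higher and 2 lower in MYC TAMs than in control TAMs. The shares of all genes were 3.89% higher and 12.0% lower. Lrp1, which encodes a receptor for heme bound to hemopexin, rose by 1.28 ± 0.32 (limma adjusted p = 0.0244). Mfsd7b, the older symbol of the heme exporter gene Flvcr1, rose by 1.10 ± 0.28 (0.0260) and is named after its value was seen. Slc46a1, which encodes a transporter of folate and heme, fell by 1.39 ± 0.30 (0.0131), and Spic, which encodes a factor of macrophages that recycle red cells, fell by 2.14 ± 0.50 (0.0186). The calls of Lrp1, Mfsd7b, Slc46a1 and Spic were lost without 4, 4, 1 and 3 libraries in turn, with adjusted p of up to 0.0939 for Lrp1 (without control TAM mouse 3), 0.0787 for Mfsd7b (control TAM mouse 1), 0.0535 for Slc46a1 (control TAM mouse 3) and 0.0677 for Spic (control TAM mouse 5). With the epithelial covariate the differences were 0.51 for Lrp1 (limma adjusted p = 0.604), 0.32 for Mfsd7b (0.707), -1.86 for Slc46a1 (0.0464) and -3.23 for Spic (0.0289). Cd163, the receptor gene for haemoglobin bound to haptoglobin, marked MTMs. It was at 0.70, 0.26 and 1.56 in MYC TAMs, 6.61 and 5.80 in MYC MTMs, 0.32, 0.54 and 0.42 in control TAMs, and 6.95, 4.82 and 6.14 in control MTMs. TAMs and MTMs did not overlap in either genotype. In MYC TAMs the level of Cd163 was 41.2-fold below that of MYC MTMs (-5.37 ± 0.57, limma adjusted p = 0.00121). In control TAMs it was 46.6-fold below that of control MTMs (-5.54 ± 0.51, 0.000506), and both calls held without each library in turn.

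Of the 18 genes of heme synthesis and mitochondrial iron, 1 was higher and 3 lower in MYC TAMs than in control TAMs. The shares of all genes were 3.89% higher and 12.0% lower. Uros, which encodes an enzyme of porphyrin synthesis, fell by 0.91 ± 0.25 (limma adjusted p = 0.0369). Alas2, the erythroid gene for the first step, fell by 0.63 ± 0.15 (0.0220) at levels of 0.97 or less in every library. Iscu, the scaffold gene for iron-sulfur clusters, rose by 1.29 ± 0.37 (0.0410), and its levels were 3.20, 4.83 and 4.74 in MYC TAMs against 3.01, 2.93 and 2.97 in control TAMs. The Iscu rise rested on mice 4 and 6: with mouse 2 as the only MYC TAM library the difference was 0.23 (adjusted p = 0.332), and 10 of the 11 fits with 1 library left out lost the call (up to 0.139). Uros and Alas2 lost their calls without 5 and 4 of the 11 libraries in turn, with adjusted p of up to 0.139 and 0.0835, both without control TAM mouse 3. With each library centred on its median neither passed (0.0697 and 0.0579), and with the epithelial covariate Uros (-0.99, limma adjusted p = 0.202), Alas2 (-0.37, 0.443) and Iscu (0.35, 0.776) did not pass.

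Hmox1 and the ferritin genes are targets of the repressor BACH1 and the activator NRF2 at their promoters. Of 15 other genes of that axis, 4 were lower in MYC TAMs than in control TAMs and none was higher (median of the list -0.31). The shares of all genes were 12.0% lower and 3.89% higher. Nqo1, a quinone reductase gene and a standard NRF2 target, fell by 2.23 ± 0.53 (limma adjusted p = 0.0191). The NADPH-producing genes Me1 and G6pdx fell by 2.21 ± 0.50 (0.0152) and 0.81 ± 0.19 (0.0186), and Mafg, a partner of both factors named after its value was seen, by 0.34 ± 0.10 (0.0396). Mafg was low in every library, at 0.12, 0.33 and 0.26 in MYC TAMs and 0.52 to 0.67 in control TAMs, and its call was lost in 12 of 20 alternatives (adjusted p from 0.0250 to 0.433). Whether BACH1 or NRF2 had a part in the level of Fth1 was not tested. With the epithelial covariate the differences were -1.08 for Nqo1 (limma adjusted p = 0.489), -1.05 for Me1 (0.445) and -1.32 for G6pdx (0.0112). Nqo1 and Me1 lost their calls without MYC TAM mouse 4 (0.0650 and 0.0554) or control TAM mouse 3 (0.0649 and 0.0551), and G6pdx did without MYC TAM mouse 2 (0.0622) or 4 (0.0598) and likewise without control TAM mouse 1 (0.0598) or 5 (0.0638). Abcc1, which encodes a transporter of glutathione conjugates, fell in MYC TAMs relative to MYC MTMs by 1.52 ± 0.30 (0.0237), a call lost without MYC MTM mouse 2 (0.166), MYC MTM mouse 4 (0.167) or MYC TAM mouse 4 (0.0611).

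**Figure D5:**
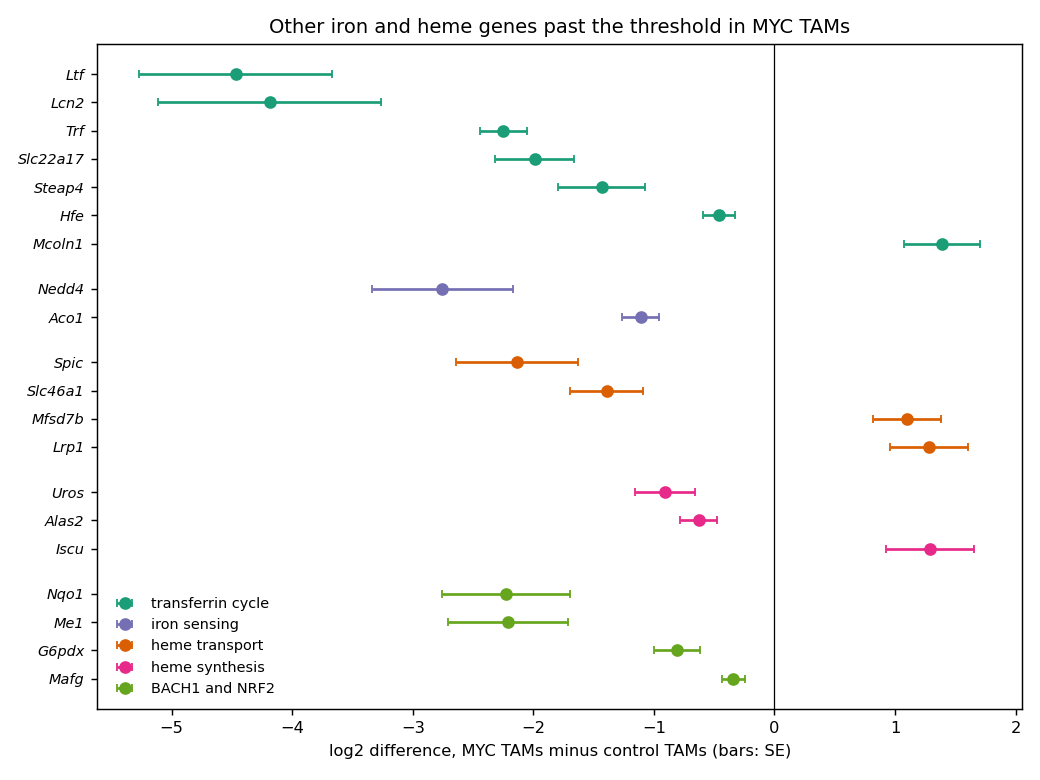
Log2 difference with its SE, MYC TAMs minus control TAMs, of 20 of the 21 genes of the 5 further iron and heme lists that passed the adjusted threshold, coloured by list. The 4 points to the right of 0 are Mcoln1, Mfsd7b, Lrp1 and Iscu, and the largest falls are those of Ltf (-4.47) and Lcn2 (-4.19).

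The members did not share 1 pattern across the libraries, although some moved together or in opposition. Pearson correlations between members over the 11 libraries ran from -0.80 (Fth1 and Cp) to 0.92 (Ftl1 and Hmox1). Tfrc and Blvrb were at 0.74, Fth1 and Slc11a2 at 0.66, and Slc11a2 and Cp at -0.75. As a description over the 11 libraries, which share groups and mice, the 2 named genes with the highest Pearson correlation among 8749 genes with a mean level of at least 1 were Fbxo6 (0.98) and Gde1 (0.97) for Fth1, Rai14 (0.98) and Qk (0.96) for Ftl1, and Havcr2 and Wsb1 (0.93 each) for Slc40a1. They were Grn (0.95) and Itgb7 (0.94) for Hmox1, Vim and Crebrf (0.94 each) for Slc11a2, and Ptprk and Spc24 (0.97 each) for Cp. They were Ccdc159 (0.93) and Gtdc1 (0.90) for Slc11a1, Adcy3 and Trip12 (0.90 each) for Tfrc, Parp3 (0.87) and Acp2 (0.82) for Blvrb, and Tmem9b (0.83) and Vps29 (0.82) for Blvra. No gene stood on 2 of these lists.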

How the data were processed

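The deposited table gives 1 log2 value per gene and library for 17475 genes, and the authors' formula is not given in the sources used here. The values behaved as log2(x + 1), with x a read number scaled for depth and gene length. Of 8342 low values tested, 99.51% were whole reads within 0.1 read, and exon lengths from GENCODE were found for 93.5% of genes. The depths are therefore estimates. Per the labels' protocols, stranded libraries were made from 500 ng of poly-A selected RNA with 8 cycles of PCR, and the integrity numbers of 3.3 to 9.6 are not given per library. Per the submitters' processing notes, HISAT2 and DESeq2 were used with mm10 (GRCm38.p5), without a stated role.

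The test was limma 3.58.1 (R 4.3.3) on 4 group means over all 11 libraries, with variances that follow the level, two-sided p and Benjamini-Hochberg adjustment over all genes (threshold 0.05). On simulated data for MYC over control TAMs, 35% of 100 genes changed by 1 and 84% of 100 changed by 2 (log2) among 17475 were recovered. The labels pair TAMs and MTMs by mouse. Deviations of a mouse's libraries correlated at 0.098 and 0.038 (MYC) and at 0.176, 0.211 and 0.078 (control). The members and lists were chosen with earlier results of these data known. All 10 members were named, up to 4 genes per list by smallest adjusted p, and 2 most correlated genes per member. The epithelial covariate, the mean of the measured epithelial markers without Ltf, was added after seeing the data. Python 3.11.15 was used for depths, transcript searches and figures. A gene among the wider lists is not reported here.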

Additional observations from a re-analysis of the deposited data

How the results depend on the processing

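The count of members called between MYC TAMs and MYC MTMs was 2 as reported. It was 0 with only those groups in the model, 0 after quantile normalisation, 1 with each library centred on its median and 1 without MYC TAM mice 4 and 6 together, a fit that leaves mouse 2 as the only MYC TAM library and assumes that it varies like the other groups, and 0 to 3 when single libraries were left out. Between MYC and control TAMs the count of 4 became 2 without MYC TAM mice 4 and 6 and 2 with the epithelial covariate, with Fth1 and Slc40a1 past the threshold in each. Between MYC and control MTMs it was 1, Hmox1, in a table limited to mean levels of at least 1 and 0 to 1 when single libraries were left out, and the interaction count was 1, Slc40a1, with the epithelial covariate. Where the cause of these shifts is not plain from the smaller number of genes or libraries, the cause was not tested.

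Some differences that did not pass changed sign. Cp between control TAMs and control MTMs, 0.14 as reported, was -0.14 with the epithelial covariate and -0.31 to 0.61 with single libraries left out. Ftl1 between MYC and control TAMs was 0.00 (-0.004) with the covariate. Slc11a2 between MYC and control MTMs, 0.06, ranged from -0.24 to 0.36 with single libraries left out, and the Ftl1 interaction from -0.44 to 0.02. The Fth1 interaction was -0.02 (-0.022) after quantile normalisation, and why it moved there was not tested.

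Under a fixed block for the mouse, the calls that changed among members were Fth1 (1.62, adjusted p = 0.0742) and Cp (-2.11, 0.0359) between MYC TAMs and MYC MTMs. A random block changed only Cp there (-2.31, 0.0378), and the block changed no other call of a member. Fixed blocks cannot be used between genotypes, since each mouse has 1 genotype. The table-wide counts were 784 between MYC TAMs and MYC MTMs and 476 with the fixed block, 414 and 255 between control TAMs and control MTMs, and 216 in the interaction with 31 in the fixed and 325 in the random block.

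Scaling moved the balance of calls. Higher calls were 24.5% of those between MYC and control TAMs, 41.6% after quantile normalisation and 69.9% after centring on the median, which shifts the median of all genes to 0.19. Between MYC TAMs and MYC MTMs these shares were 14.8%, 29.9% and 35.8%. The directions of the 6 member calls did not change with either scaling.

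Table-wide counts moved by more than 1.5 times under further settings. With only the groups compared in the model they were 90 between MYC TAMs and MYC MTMs, 196 between control TAMs and control MTMs, 1547 between MYC and control TAMs (2778 as reported) and 0 between MYC and control MTMs (108 as reported). With single libraries left out, the counts that moved this far went down to 163, 214, 1734 and 23 in these comparisons and to 21 in the interaction. Centring gave 5029 calls between MYC and control TAMs, and the epithelial covariate 1376. The interaction gave 327 with the limit on mean level, 129 with centring, 424 without MYC TAM mice 4 and 6, and 100 with the covariate.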
